A study of Danio rerio with 10 samples.

Results

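The genes described are 10 named members of the prostaglandin system of the zebrafish testis, chosen by name: the cyclooxygenases ptgs1, ptgs2a and ptgs2b, the prostaglandin E synthases ptges, ptges3a and ptges3b, the prostaglandin E2 receptors ptger2a, ptger4a and ptger4b, and the degrading enzyme hpgd. They matched 11 of the 33737 Ensembl gene IDs in the count tables. The name table gives the human-type symbols PTGS2, PTGES3, PTGER2 and PTGER4 to 2 IDs each, with no final a or b, so every ID that carries a symbol was taken and the 2 IDs of a pair are told apart by number only. All 11 IDs had reads, 7 of them more than 3 reads in each of the 10 libraries.

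Testis tissue of adult wild-type zebrafish was kept in culture for 3 days. All cultures received 11KT (11-ketotestosterone, the main androgen of male fish). In 5 control libraries 11KT was the only addition, and in 5 Amh libraries the tissue also received Amh (anti-Müllerian hormone, a TGF-beta family ligand from Sertoli cells). The dose of Amh, and whether a library stands for 1 animal or pooled tissue, were stated in none of the sources at hand. The libraries are numbered 1 to 5 in both groups.

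Prostaglandins are lipid signals made from arachidonic acid, which phospholipase A2 frees from membranes. Cyclooxygenases, the products of the PTGS genes, turn it into the common precursor, PGH2. Prostaglandin E synthases then make PGE2, which acts through G protein-coupled receptors of the PTGER family, until 15-hydroxyprostaglandin dehydrogenase, the product of HPGD, inactivates it. In mammals PTGS1 is mostly constitutive, while PTGS2 is induced by hormones, growth factors and inflammatory signals.

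Control libraries held 8455226 to 11934679 counts and Amh libraries 10974579 to 15448069. A library's upper limit for a gene without reads, 3 counts, corresponds to 0.180 to 0.350 CPM, the unit of level used here (counts relative to the TMM-scaled library total), and covers counting error only. Libraries of the same number lay close together across the groups, with correlations of their deviations from the group means of 0.490 to 0.784 over genes. Each comparison of a tested member was therefore read in the unpaired fit and also with the replicate number as a block. No transcript lengths were at hand, so levels are compared between libraries and not between genes. In these whole-tissue libraries, fewer cells of a type and less RNA per cell cannot be told apart.

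The clearest Amh to control difference among these genes was in a PTGS2 gene. It was higher with Amh in all 5 replicate numbers, by 1.06 to 2.18 times, while the other PTGS2 gene and ptgs1 each differed by no more than 1.32 times in any number. In numbers 1 and 4 the ratio of the former PTGS2 gene, 1.31 and 1.06, also lay within that bound. A PTGER2 gene, coding for a PGE2 receptor, had lower CPM with Amh in 5 of 5 numbers, from few reads and in number 1 by a ratio of 0.996 only. Of all genes tested, 4.67% were higher and 5.09% lower with Amh in 5 of 5 numbers. The other 5 member IDs with reads in all 10 libraries, besides the cyclooxygenases, lay above control in some numbers and below it in others. No member passed the unpaired test across all genes. With the replicate number as a block, the first of these, the PTGS2 gene, did not pass in edgeR (adjusted p = 0.195). Its paired call, made on the adjusted p, turned on the tool, the filter and the libraries numbered 2.

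**Figure D1:**
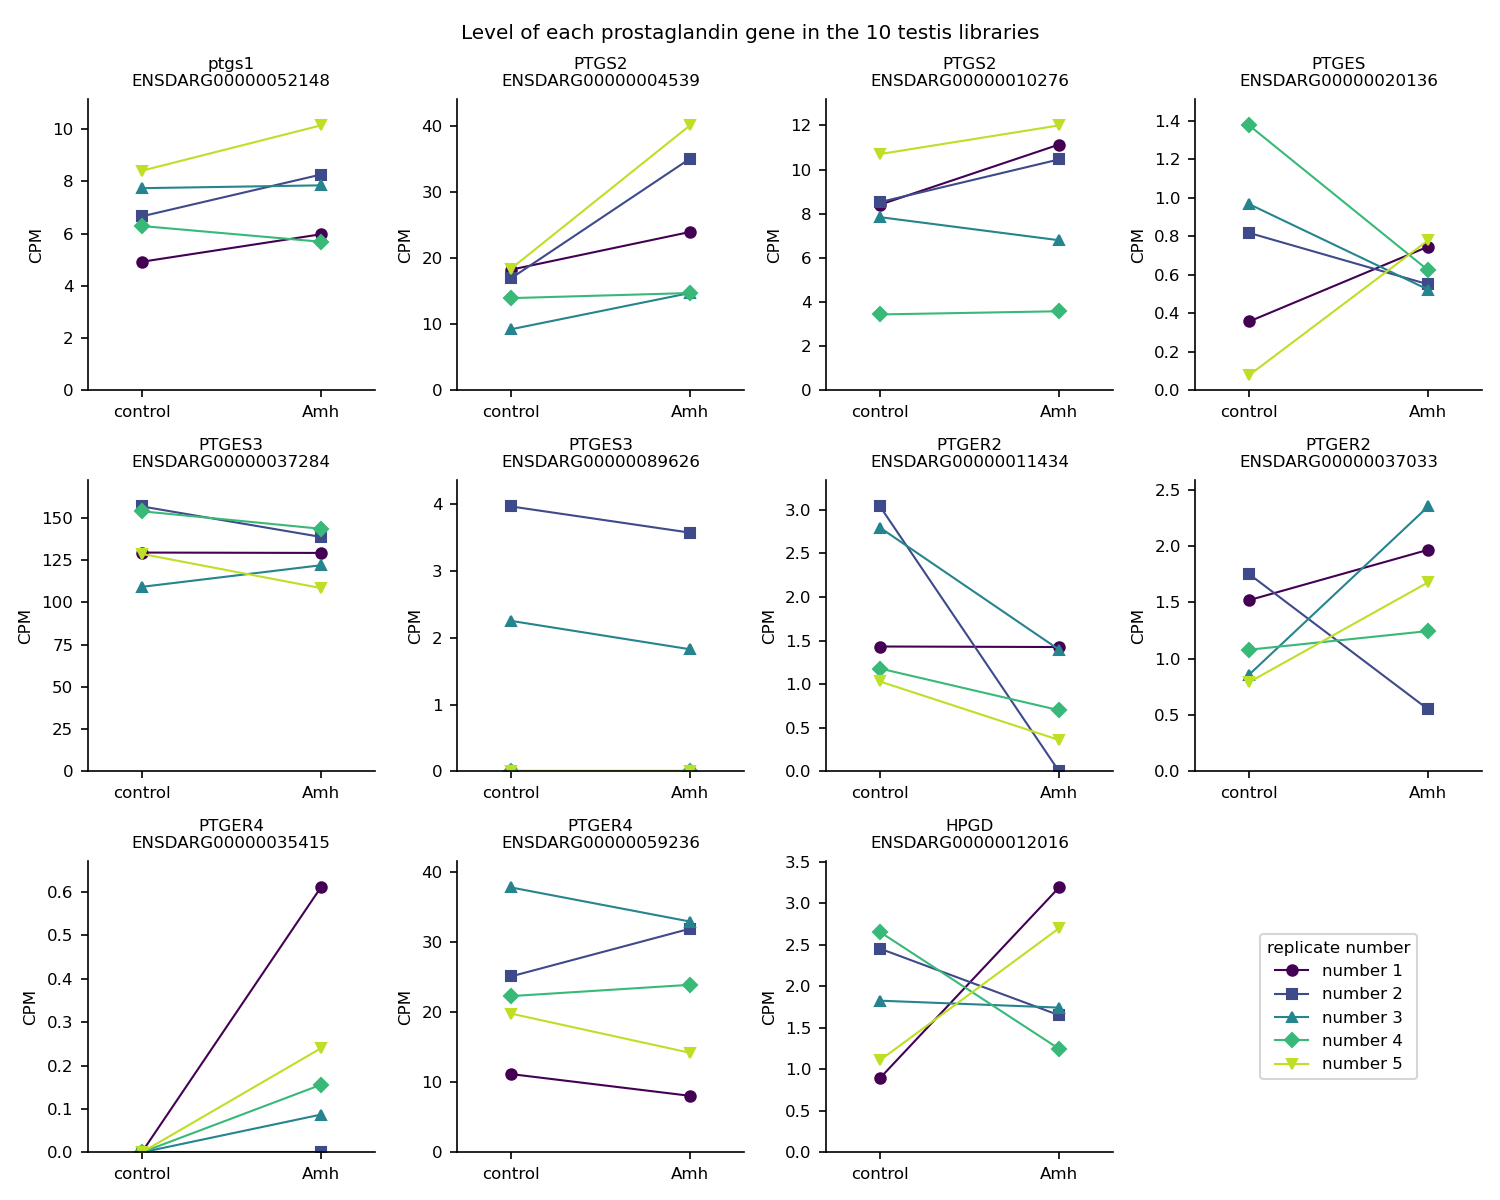
Level of each gene ID (CPM, y axis, starting at 0 and scaled per panel) in control and Amh libraries, with a line joining the 2 libraries of a replicate number. PTGS2 ENSDARG00000004539 is higher at the Amh end of every line, at 14.7 to 40.1 CPM against 9.24 to 18.4 CPM.

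The first PTGS2 gene, ENSDARG00000004539, stood at 18.2, 16.9, 9.24, 14.0 and 18.4 CPM in control libraries 1 to 5 and at 24.0, 35.0, 14.7, 14.7 and 40.1 CPM in Amh libraries 1 to 5. Its read counts were 86 to 232 in control and 169 to 668 in Amh libraries. The Amh libraries 1, 2 and 5 lay above every control library, while Amh 3 and Amh 4 lay within the control range, so the groups overlapped. Control libraries averaged 15.4 ± 3.85 CPM, and Amh libraries 25.7 ± 11.6 CPM (SD, n = 5 each). Within numbers the Amh to control ratio was 1.31, 2.07, 1.59, 1.06 and 2.18 for numbers 1 to 5. The ratio was largest in numbers 2 and 5, and number 4 was close to no difference.

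In the unpaired comparison this gene had a log2 fold change of 0.74 ± 0.302 (SE; edgeR quasi-likelihood, Benjamini-Hochberg adjusted p = 0.9999). With the replicate block the log2 fold change was 0.68 ± 0.139 (SE; edgeR, adjusted p = 0.195). In the paired comparison DESeq2 called the gene (log2 fold change 0.67 ± 0.162, SE, adjusted p = 0.0304) and limma-voom did not (0.72 ± 0.139, adjusted p = 0.0952; 0.0412% of all genes called). Paired edgeR called it without a low-count filter (adjusted p = 0.000125; 0.389% of all genes called) and without the libraries numbered 2 (log2 fold change 0.59 ± 0.132, adjusted p = 0.0258), where 229 of 19661 genes were called (1.16%). The fold change was above 0 in each of the 26 alternatives run, from 0.52 without Amh 5 to 0.89 without Amh 4, and passed in 3 of them. The unadjusted p in paired edgeR was 0.00017 with all libraries and 0.00014 without those numbered 2. Over all genes the calls went from 4 to 229 between these fits, which changes the adjustment. The call by adjusted p therefore turned on the tool, the filter and the libraries numbered 2.

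**Figure D2:**
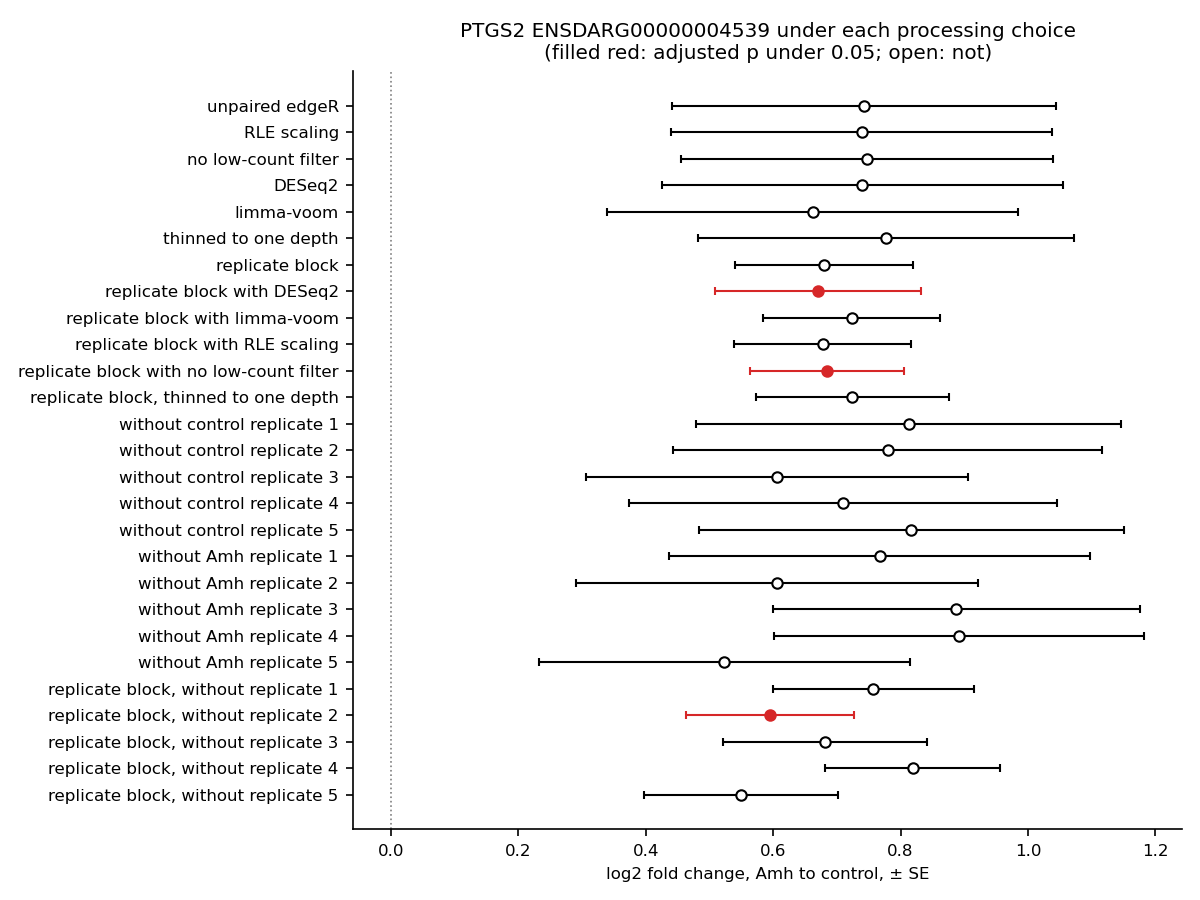
Log2 fold change of PTGS2 ENSDARG00000004539, Amh to control (x axis, bars ± SE), in the unpaired edgeR fit and under 26 alternatives (rows). All values lie between 0.52 and 0.89, and the 3 filled red points are the settings with adjusted p under 0.05.

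Among all 19420 genes tested, unpaired edgeR called 0 (0% of them; 131 at an unadjusted p under 0.05), as did unpaired DESeq2 (162 at an unadjusted p under 0.05) and limma-voom (136). Of the 8 member IDs tested, 0 passed, and the median log2 fold change was 0.17 (5 above and 3 below 0) beside -0.01 over all genes. Just 1 member had an unadjusted p under 0.05 in each tool, against 0.675% of all genes with edgeR, 0.834% with DESeq2 and 0.7% with limma-voom. It was the first PTGS2 gene in edgeR and DESeq2 and the first PTGER2 gene in limma-voom. Paired edgeR called 4 genes (0.0206%), none of them a member, and 2 of the 8 had an unadjusted p under 0.05 against 8.72% of all genes. Paired DESeq2 called 25 of 13019 genes with an adjusted p (0.192%), 1 of them a member. In CPM, 1 of the 8 was higher in 5 of 5 numbers and 1 was lower in 5 of 5, against 4.67% and 5.09% of all genes tested. The groups overlapped in CPM for all 8, while 0.139% of all genes tested had groups that did not. The 3 IDs left out by the low-count filter were PTGES, a PTGES3 gene and a PTGER4 gene.

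The second PTGS2 gene, ENSDARG00000010276, stood at 8.41, 8.53, 7.84, 3.44 and 10.7 CPM in control libraries 1 to 5 and at 11.1, 10.5, 6.80, 3.58 and 12.0 CPM in Amh libraries 1 to 5. Within each group the library numbered 4 was lowest and that numbered 5 highest, and the groups overlapped over nearly their whole range. Its ratio ran from 0.867 in number 3 to 1.32 in number 1, above 1 in 4 of 5 numbers. The log2 fold change was 0.18 ± 0.35 unpaired and 0.16 ± 0.15 paired (SE; edgeR adjusted p = 0.9999 and 0.805).

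The levels of the second PTGS2 gene followed the replicate number more than those of the first. The number accounted for 95.6% of its variance in log2 CPM and the group for 1.40%, while for the first PTGS2 gene these shares were 58.9% and 30.3%. The medians over all genes tested were 77.2% for the number and 2.86% for the group. Reads of the first gene made up 54.1% to 80.2% of both PTGS2 genes' reads in control and 68.3% to 80.4% in Amh libraries. Over the 10 libraries, which share 5 numbers, the log2 levels of both genes had a Pearson r of 0.59 and a Spearman rho of 0.88.

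The constitutive-type cyclooxygenase ptgs1 (ENSDARG00000052148) was at 4.92, 6.66, 7.74, 6.29 and 8.40 CPM in control libraries 1 to 5 and at 5.97, 8.26, 7.84, 5.69 and 10.1 CPM in Amh libraries 1 to 5. Amh libraries were higher in 4 of 5 numbers, with ratios of 0.904 to 1.24, and the groups overlapped. Its log2 fold change was 0.16 ± 0.226 unpaired and 0.15 ± 0.154 paired (SE; edgeR adjusted p = 0.9999 and 0.821).

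The first PTGS2 gene was set beside the other cyclooxygenases by its log2 ratios within numbers, a comparison chosen after the values were seen. Its ratio exceeded that of the second PTGS2 gene by 0.52 ± 0.472 (mean ± SD of 5 numbers, log2), in 4 of 5 numbers, and the difference was close to 0 in numbers 1 and 4 (-0.01 and 0.02). Its ratio exceeded that of ptgs1 by 0.51 ± 0.326, in 5 of 5 numbers. With 5 numbers an exact two-sided sign-flip permutation test cannot go below p = 0.0625, so whether these genes differ in response could not be settled by it.

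**Figure D3:**
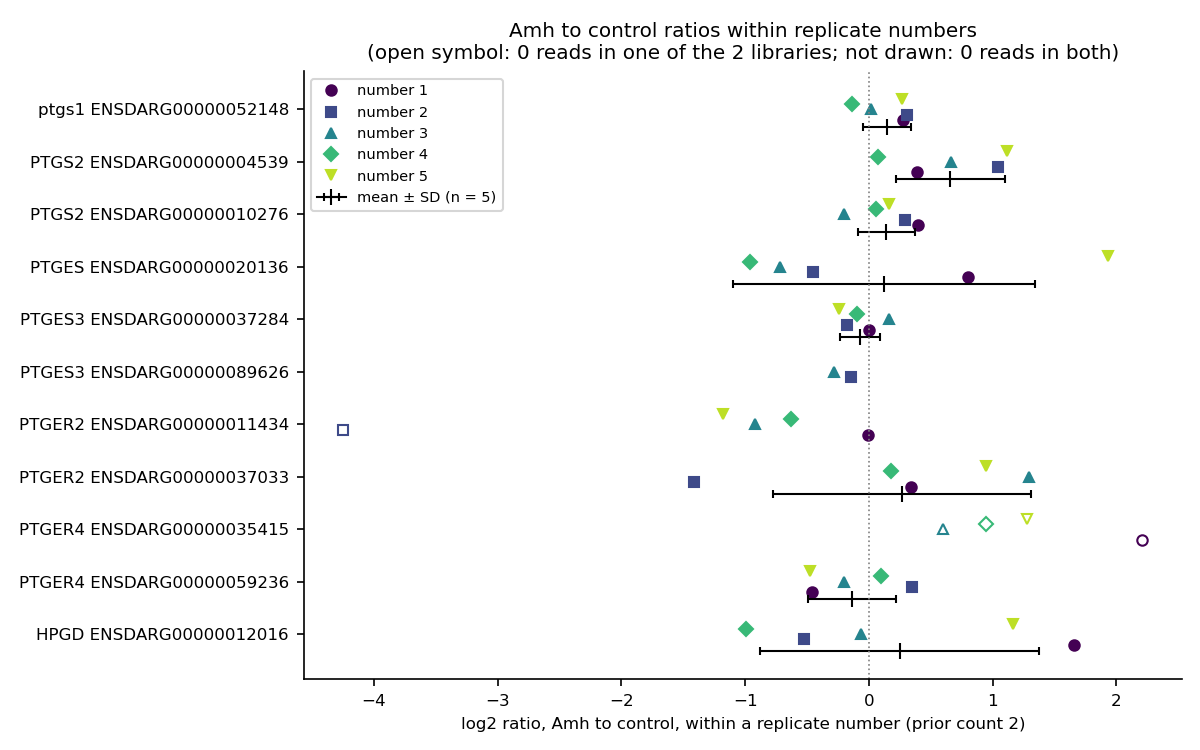
Log2 ratio of Amh to control within each replicate number (x axis, prior count of 2) for the 11 gene IDs (rows). Black bars are the mean ± SD of 5 numbers, drawn for IDs with reads in all libraries. PTGS2 ENSDARG00000004539 lies above 0 in all 5 numbers, while the points of PTGES and HPGD lie above 0 in numbers 1 and 5 and below it in numbers 2, 3 and 4.

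Of the members that code for prostaglandin E synthases, a gene of the cytosolic type was the one with ample reads. PTGES3 codes for p23, a co-chaperone of Hsp90 that also has PGE synthase activity. Its ID ENSDARG00000037284 held 1016 to 1904 reads in each library and stood at 129, 157, 109, 154 and 129 CPM in control libraries and 129, 139, 122, 144 and 108 CPM in Amh libraries 1 to 5. The groups overlapped, and the ratio lay between 0.843 and 1.12 in every number. The log2 fold change was -0.08 ± 0.131 unpaired and -0.07 ± 0.0753 paired (SE; edgeR adjusted p = 0.9999 and 0.820).

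The other PTGES3 ID, ENSDARG00000089626, was read in some replicate numbers and not in others. It had 34 and 39 reads in the control and Amh libraries numbered 2 and 21 and 21 in those numbered 3, and 0 in the 6 libraries numbered 1, 4 and 5. A count of 0 there allows at most 0.180 to 0.295 CPM, against 1.83 to 3.97 CPM in the 4 libraries with reads. Presence and absence followed the number and not the treatment. A pattern of this kind, with at least 20 reads in both libraries of 2 or 3 numbers and none in the others, was found in 10 of 29017 genes with a read (0.0345%), by a rule set after this gene was seen. The ID shares its symbol with the first, and no source at hand says how reads that match both were counted.

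PTGES (ENSDARG00000020136), the inducible microsomal synthase that in mammals works together with PTGS2, had only 1 to 14 reads per library. Its counts were 4, 7, 9, 14 and 1 in control and 11, 6, 6, 8 and 13 in Amh libraries 1 to 5, which is 0.0793 to 1.38 CPM and 0.523 to 0.780 CPM. It was above 3 reads in 9 of 10 libraries but failed the low-count filter. Amh libraries were higher in numbers 1 and 5 and lower in the other 3. Without the filter its log2 fold change was -0.12 ± 0.578 (SE; unpaired edgeR adjusted p = 0.99999) and 0.07 ± 0.544 with the block (SE; paired edgeR adjusted p = 0.993), a range too wide to tell a rise from a fall at this depth.

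HPGD (ENSDARG00000012016), which ends the PGE2 signal, had 10 to 47 reads per library. It stood at 0.895, 2.45, 1.83, 2.65 and 1.11 CPM in control libraries and at 3.19, 1.65, 1.74, 1.25 and 2.70 CPM in Amh libraries 1 to 5. In numbers 1 and 5 the Amh library was 3.57 and 2.43 times as high as its control, and in numbers 2, 3 and 4 it was 0.673, 0.954 and 0.470 times as high. The control libraries 1 and 5 were the lowest of their group and the Amh libraries 1 and 5 the highest of theirs. The number accounted for 2.00% of the variance in log2 CPM, the group for 5.61% and the rest for 92.4%, against a median of 16.1% for the rest over all genes tested. The log2 fold change was 0.26 ± 0.386 unpaired and 0.28 ± 0.384 paired (SE; edgeR adjusted p = 0.9999 and 0.879), and -0.10 ± 0.392 without number 1 in the paired fit. A random thinning of all libraries to 1 depth gave an unpaired value of 0.01 ± 0.387 (SE), a change within the SE of either value.

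PGE2 acts through 4 receptor types in vertebrates, of which PTGER2 and PTGER4 raise cyclic AMP. The PTGER4 gene ENSDARG00000059236 had 119 to 378 reads per library. It stood at 11.2, 25.1, 37.8, 22.3 and 19.8 CPM in control libraries and at 8.08, 31.9, 32.9, 23.9 and 14.2 CPM in Amh libraries 1 to 5. Both libraries numbered 1 were lowest and both numbered 3 highest, and the number accounted for 93.4% of the variance in log2 CPM. Ratios ran from 0.717 to 1.27, below 1 in 3 of 5 numbers. The log2 fold change was -0.07 ± 0.381 unpaired and -0.13 ± 0.123 paired (SE; edgeR adjusted p = 0.9999 and 0.811).

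The other PTGER4 ID, ENSDARG00000035415, had 0 reads in all 5 control libraries. In Amh libraries 1 to 5 it had 9, 0, 1, 2 and 4 reads. Only Amh 1 and Amh 5 exceeded the 3 reads that a count of 0 allows, and in Amh 2 it was not detectable at this depth. It did not enter the filtered test. Without a filter it had an unadjusted p = 0.00988 in unpaired edgeR (adjusted p = 0.99999) and 0.0191 with the block (adjusted p = 0.507). A fitted fold change against libraries at 0 depends on the prior count and is not given.

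The first PTGER2 gene, ENSDARG00000011434, had 16, 26, 26, 12 and 13 reads in control and 21, 0, 16, 9 and 6 reads in Amh libraries 1 to 5. That is 1.43, 3.04, 2.79, 1.18 and 1.03 CPM in control against 1.43, 0, 1.39, 0.701 and 0.360 CPM in Amh libraries. CPM was lower with Amh in 5 of 5 numbers, though in number 1 by a ratio of 0.996 only, and the groups overlapped. In Amh 2 none of 10974579 counts fell on this gene, which allows up to 0.275 CPM, beside 3.04 CPM in control 2.

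Its log2 fold change was -1.26 ± 0.641 unpaired and -1.28 ± 0.502 with the block (SE; edgeR adjusted p = 0.9999 and 0.490). Without number 2 the paired value was -0.75 (adjusted p = 0.366). It lay between -1.75 and -0.75 over the 26 alternatives, none of which called it, and paired DESeq2 gave it no adjusted p.

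The second PTGER2 gene, ENSDARG00000037033, had 17, 15, 8, 11 and 10 reads in control and 29, 6, 27, 16 and 28 reads in Amh libraries 1 to 5. It stood at 0.793 to 1.75 CPM in control libraries and 0.550 to 2.35 CPM in Amh libraries and was higher with Amh in 4 of 5 numbers. Number 2 was the exception, with a ratio of 0.314. The log2 fold change was 0.39 ± 0.402 unpaired and 0.37 ± 0.39 paired (SE; edgeR adjusted p = 0.9999 and 0.829). The log2 ratio of the first PTGER2 gene lay below that of the second in 5 of 5 numbers, a comparison also chosen after the values were seen. With 5 numbers the same test could not pass whatever the difference.

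Further receptors were taken from a list of 58 names of the wider eicosanoid pathway, of which 42 matched 43 IDs beyond the members. The PTGER4 relative ptger4c had 2 to 32 reads per library and exceeded 3 reads in 8 of 10. PTGER3, whose mammalian product lowers cyclic AMP, had 0 to 20 reads and exceeded 3 in 6 of 10. The calcium-coupled type was near its detection limit, with 2 to 8 reads for PTGER1 and 0 to 6 for ptger1a. PTGFR and PTGIR, the receptors of prostaglandin F2-alpha and prostacyclin, never exceeded 3 reads. Of all PGE2 receptor IDs, ENSDARG00000059236 (PTGER4) and ENSDARG00000037033 (PTGER2) exceeded 3 reads in all 10 libraries, and ENSDARG00000011434 (PTGER2) in 9.

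**Figure D4:**
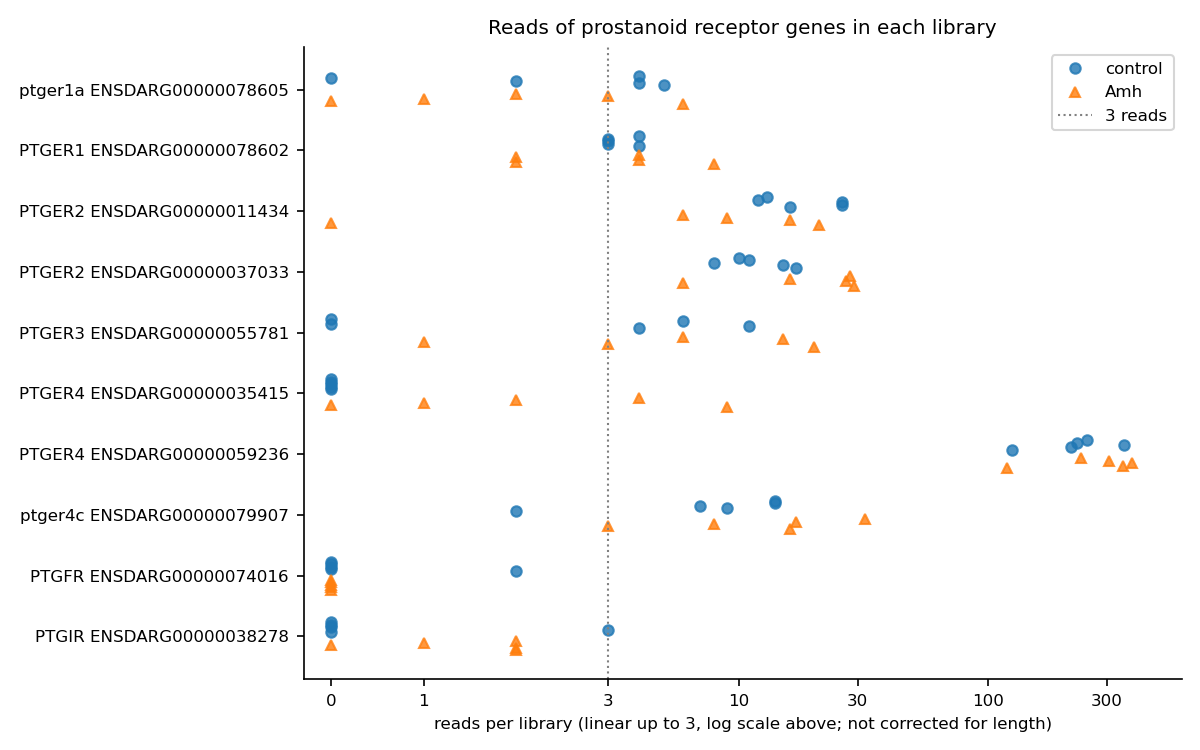
Reads per library (x axis, linear up to 3 and logarithmic above, not corrected for transcript length) of 10 prostanoid receptor gene IDs in control (circles) and Amh (triangles) libraries. PTGER4 ENSDARG00000059236 has 119 to 378 reads in every library, and PTGFR and PTGIR stay at or below the dotted line at 3 reads.

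Of the 43 IDs of the wider list, 27 exceeded 3 reads in all 10 libraries, 1 (ltb4r2a) had no read and 29 were tested. None passed over all genes in unpaired or paired edgeR. The median log2 fold change was -0.02 (13 above and 16 below 0), beside -0.01 over all genes tested. In the paired fit it was -0.01, beside -0.01 over all genes, and an unadjusted p under 0.05 was reached upwards by 0 and downwards by 2 (3.84% and 4.88% of all genes). PTGES2, a further PGE synthase, averaged 59.9 ± 3.99 CPM without and 58.8 ± 6.05 CPM with Amh (SD, n = 5 each), with a log2 fold change of -0.03 ± 0.11 (SE; unpaired edgeR adjusted p = 0.9999). With the replicate block its log2 fold change was -0.03 ± 0.0757 (SE, paired edgeR adjusted p = 0.938). The reductases cbr1l and ptgr1.1 also had similar means in both groups, 327 ± 80.8 and 335 ± 84.3 CPM for cbr1l and 109.9 ± 27.7 and 108 ± 22.1 CPM for ptgr1.1 (SD, n = 5 each).

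The smallest paired p of the wider list belonged to slco2b1 (ENSDARG00000054609), an organic anion transporter. It stood at 4.83, 5.14, 3.87, 6.88 and 4.20 CPM in control libraries and at 1.97, 1.19, 3.40, 4.91 and 1.56 CPM in Amh libraries 1 to 5. It was lower with Amh in 5 of 5 numbers, as were 5.09% of all genes tested, and Amh 4 lay within the control range. Its log2 fold change was -0.94 ± 0.373 unpaired and -1.03 ± 0.259 paired (SE; edgeR adjusted p = 0.9999 and 0.297). It passed in paired edgeR without a low-count filter only (adjusted p = 0.0112), where 113 of 29017 genes were called (0.389%). Paired DESeq2 gave it no adjusted p.

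The lipoxygenase gene alox5b.2 had a paired log2 fold change of -0.81 ± 0.247 (adjusted p = 0.376), alox12 one of 0.25 ± 0.124 (0.598), the prostaglandin D synthase-type gene ptgdsb.1 one of -0.27 ± 0.164 (0.679) and the leukotriene receptor ltb4r2b one of -0.69 ± 0.481 (0.712; SE, paired edgeR). None of these passed. Like slco2b1, ptgdsb.1 was lower with Amh in 5 of 5 numbers, with ratios of 0.708 to 0.908.

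No gene of the germ, Sertoli or Leydig cell lists was at 0 in all libraries of this testis tissue. The summed levels of several marker lists differed between the groups within numbers. A sum gives most weight to the genes with the most reads. Over 22 leukocyte and macrophage IDs, from 17 of 22 names, the summed level spanned 259.6 to 446 CPM in control libraries. In Amh libraries it spanned 191 to 312 CPM, lower in 5 of 5 numbers (ratios 0.657 to 0.941), with c1qc at 0. Of the 14 IDs tested, 1 lay above and 13 below 0 in paired log2 fold change, beside 9476 and 9944 of all genes. In paired edgeR 7 of the 14 were lower and 1 higher at an unadjusted p under 0.05, against 4.88% and 3.84% of all genes. By adjusted p 1 of them was called lower, where 4 of all genes tested were called (0.0206%). Whether leukocyte content bears on the level of the first PTGS2 gene was not tested. Over 12 Sertoli cell genes the summed level was 1361 to 2119 and 1705 to 2705 CPM, higher in 5 of 5 numbers (1.06 to 1.37). Singly, 10 of them lay above and 2 below 0 in paired log2 fold change. At an unadjusted p under 0.05 in paired edgeR, 6 were higher and 1 lower (3.84% and 4.88% of all genes). Over 9 immediate early genes, listed as a sign of handling, the summed level was 232 to 371 and 236 to 421 CPM, also higher in 5 of 5 (1.02 to 1.23). Singly, 9 lay above and 0 below 0 in paired log2 fold change. Of these, 1 was higher at an unadjusted p under 0.05 in paired edgeR (3.84% of all genes). In numbers 1 to 5, beside PTGS2 ratios of 1.31, 2.07, 1.59, 1.06 and 2.18, the immediate early list stood at 1.14, 1.23, 1.02, 1.07 and 1.02. The endothelial list (3 genes) and the erythrocyte list (5) were lower in 5 of 5 numbers, at 4.22 to 10.4 and 46.4 to 154 CPM over all libraries.

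The germ cell list (7 genes) stood at 4227 to 5144 CPM in control libraries and 3968 to 4741 CPM in Amh libraries, the Leydig cell list (9) at 48.0 to 369 and 41.9 to 229 CPM, and the peritubular list (5) at 173 to 270.1 and 215 to 298 CPM. In 0, 1 and 3 of 5 numbers the Amh library was higher. The part of these shifts in the values of the prostaglandin genes was not tested.

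**Figure D5:**
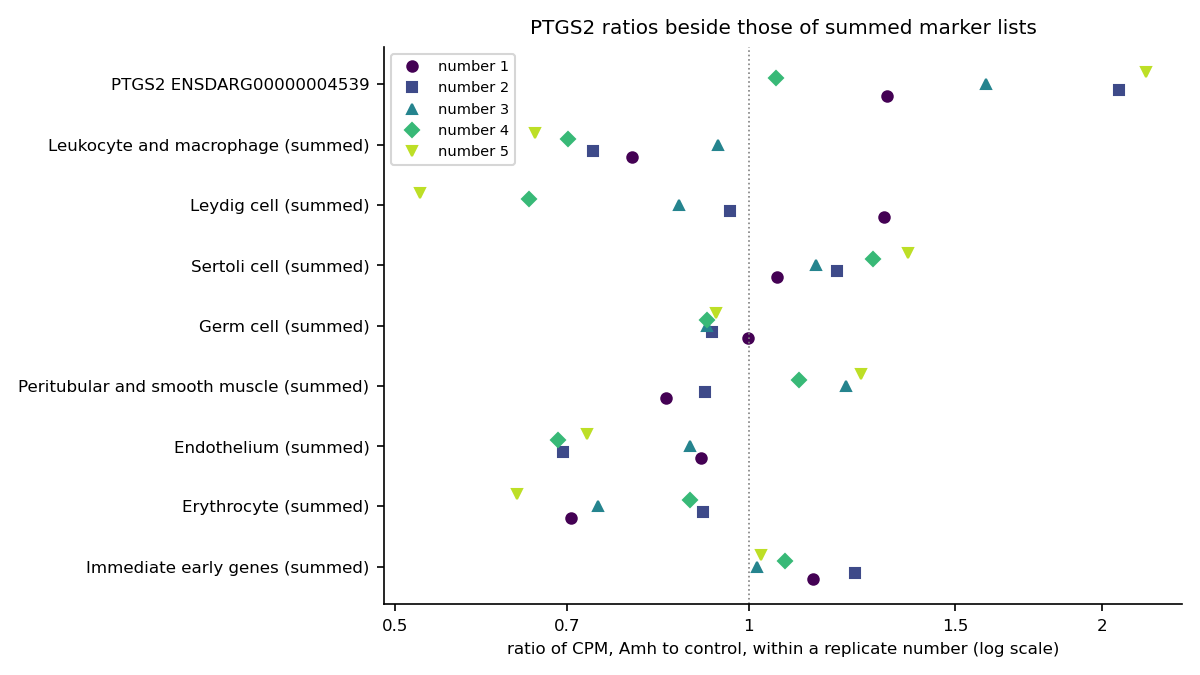
Ratio of CPM, Amh to control, within each replicate number (x axis, log scale) for PTGS2 ENSDARG00000004539 and for the summed CPM of 8 marker lists (rows). PTGS2 lies at 1.06 to 2.18, the leukocyte list at 0.657 to 0.941 and the immediate early list at 1.02 to 1.23.

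The genes whose log2 CPM was most like that of a member over the 10 libraries were sought among 17119 genes whose log2 CPM averaged 1 or more. These values rest on 5 numbers in 2 groups, and no p is given. The genes were picked as the highest of all those compared on these same libraries, so a high r is in part a product of that choice. This also holds for values with number means removed, which leave 1 difference per number. The mean Amh to control difference is kept in them, so a shift in the same direction in both genes raises that r. For the first PTGS2 gene they were ENSDARG00000012995 (Pearson r = 0.95), NUAK1 (0.94), a kinase related to AMPK, and cbx2 (0.93), a Polycomb component. With the mean of each number removed their r was 0.97, 0.93 and 0.97. For the second PTGS2 gene they were TSTD1 (0.98), cldni (0.97), a claudin, and brf2 (0.96), with 0.68, 0.85 and 0.12 once number means were removed. For ptgs1 they were tigarb (0.92), ENSDARG00000076177 (0.92) and coil (0.92), with 0.81, 0.62 and 0.44 once number means were removed. For HPGD they were uckl1a (0.94), ENSDARG00000029135 (0.87) and ENSDARG00000086831 (0.87), with 0.96, 0.90 and 0.93. PTGES was not tested and was not compared in this way.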

How the data were processed

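Values are raw read counts per Ensembl gene as deposited by the authors, not normalized, with a file for each library. Libraries were made with an Illumina TruSeq kit from 2 µg of total RNA, per the labels' protocols. TopHat2 2.0.5, HTSeq, DESeq, SAMtools 0.1.18 and FastQC 0.10.1 appear, with no roles, in the submitters' processing notes, as does the build Zv9. Annotation release, counting mode and strand setting: not given in the sources used here. Reads that paralogues or overlapping genes have in common may therefore count for either or neither. Symbols came from a reference name table (21939 of 33737 IDs). No coordinates or sequences were used.

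Genes were filtered with filterByExpr (minimum count 10; 19420 kept), scaled by TMM and compared by the quasi-likelihood test of edgeR 4.0.16 (R 4.3.3) with no term besides the group, with Benjamini-Hochberg adjustment over all genes tested and a threshold of 0.05. For edgeR the SE was derived as |log2 fold change| over the root of the F statistic. Log2 levels use a prior count of 2. For the paired fits and the ratios within numbers, numbers shared by both groups were taken to pair the libraries. The reason was that same-numbered libraries correlated at 0.490 or more, and at no more than 0.130 with others. The labels do not say what a number marks. Unpaired p-values measure the spread between these libraries, and paired p-values the spread of Amh to control differences within numbers. Either spread may be technical. The unpaired fit leaves out the likeness of same-numbered libraries. In it 0.675% of all genes tested had an unadjusted p under 0.05, against 8.72% in the paired fit. Unpaired p-values therefore run large here, and one near 1 does not show that a difference is absent. The biological coefficient of variation was 31.7% unpaired and 11.9% with the replicate block. No 2 libraries were copies (chi-square per degree of freedom 4.33 or more).

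Alternatives were RLE scaling, no filter, DESeq2 1.42.0, limma-voom (limma 3.58.1), thinning to 8455226 counts, the replicate block and leaving out libraries. The fits were tested on simulated data. All members are named, and of the wider list the 5 with the smallest paired p and the 3 with the highest mean CPM, and for each cyclooxygenase ID and HPGD the 3 genes with the highest Pearson r; other named receptors and list members were chosen after their values were seen. The members, lists and pairing were chosen with earlier results of these data known.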

Additional observations from a re-analysis of the deposited data

Results flagged for a closer look

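In groups of 5 libraries, 37 sets of values (members and named genes of the wider list) were searched for a library that lies far from the other 4, and 3 were found, where chance gives about 1 in 20. No member was among them. alox5b.2 stood at 10.4 CPM in Amh 3, with the next Amh library at 3.27 CPM; control 3 was also the highest of its group, at 9.67 CPM. alox12 stood at 21.1 CPM in Amh 1, with the next at 14.5 CPM, and control 1 was the highest control library at 16.8 CPM. ptgr1.1 stood at 69.9 CPM in Amh 5, with the next at 111 CPM, and control 5 was the lowest control library at 71.1 CPM. In all 3 the same-numbered control library was thus extreme in the same direction.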

How the results depend on the processing

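With the replicate block, 1 member (the first PTGS2 gene) passed with DESeq2 and 1 with no low-count filter, against 0 in the unpaired fit, and 0 to 1 when libraries or numbers were left out. Of the wider list 1 gene passed with the block and no filter. Over all genes, unpaired edgeR called 0, and with the block 4 passed in edgeR, 25 in DESeq2, 8 in limma-voom, 3 with RLE scaling, 113 with no filter, 3 after thinning and 0 to 229 when libraries or numbers were left out (229 without number 2, 1 without number 1 or 3, 0 without number 4 or 5). The block changed the call of no other tested member. The direction of 5 tested members held in all 26 alternatives each. Leaving out libraries gave log2 fold changes of -0.01 to 0.38 for PTGS2 ENSDARG00000010276 (below 0 without control 4), -0.25 to 0.18 for PTGER4 ENSDARG00000059236 (above 0 without control 3, Amh 1 or Amh 5) and -0.10 to 0.63 for HPGD (below 0 with the block and without number 1). The value without control 4 was -0.011. The cause of these changes was not tested. Depth limits PTGES, HPGD, both PTGER2 genes, PTGER4 ENSDARG00000035415 and PTGES3 ENSDARG00000089626, each with at most 47 reads in any library.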
